A study of Homo sapiens with 12 samples.

Results

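Gene expression after transfection with a miR-455-3p mimic was compared with that after transfection with an inhibitor control oligonucleotide in SW1353 cells, an established human line that derives from a chondrosarcoma and stands in for chondrocytes. The comparison took in 6 of the 12 RNA-seq libraries of the study, chosen by their labels alone: 3 labeled miR-455 mimic and 3 labeled miR-455 inhibitor control. All cells were transfected at 50 nM and harvested at 48 hours, and the other 6 libraries were a miR-455 mimic control and a miR-455 inhibitor, 3 of each. A mimic is a synthetic double-stranded copy of a microRNA, while an inhibitor control is a non-targeting oligonucleotide of the single-stranded kind used to block one. The groups therefore differed in the kind of oligonucleotide as well as in miR-455-3p, and these cannot be told apart in this comparison. The mimic control was the counterpart of the mimic within the study. Its level is given for some of the genes described here, and the others are set against the inhibitor control only. Every library came from 1 line and the mature microRNA was not measured. Nothing in the sources used here says that the 3 libraries of a group were transfected separately, so the p-values measure the spread between these libraries, which may be technical.

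MicroRNAs guide Argonaute proteins to messenger RNAs, mostly through pairing of the seed, the bases near the microRNA's 5′ end, with matching bases in the 3′ UTR, after which the message is degraded or translated less. miR-455 is expressed in developing cartilage and is encoded in an intron of *COL27A1*, a fibrillar collagen gene. Double-stranded RNA of the mimic kind can also be detected by cytosolic sensors that switch on interferon-stimulated genes. The 2 mature arms of miR-455 are shown because the 3′ UTR searches rest on their seeds (bases 2 to 8, in capitals). Both were taken from RefSeq (GRCh38.p14, plus strand), where miR-455-3p lies at chr9:114209487-114209507 and miR-455-5p at chr9:114209449-114209470.
hsa-miR-455-3p: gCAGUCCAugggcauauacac
hsa-miR-455-5p: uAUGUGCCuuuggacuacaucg

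A full match to the miR-455-3p seed reads TGGACTG in the messenger RNA (called 7mer-m8), and an 8mer has an A after it. Among genes that were lower in mimic cells, the following carried such a match in the longest annotated 3′ UTR, in the last exon, and FGF18, the gene the study followed up, carried only the shorter GGACTG (6mer). The sequences are shown 5′ to 3′ on the transcript with the match in capitals, and the values of these genes are given further on. Whether the sites took part in any change was not tested.
GHR, 7mer-m8 at chr5:42720823-42720829: acttcctctctgagTGGACTGg
IL18BP, 7mer-m8 at chr11:72002428-72002434: ccccttcactctaaTGGACTGt
BCL2L12, 8mer at chr19:49673741-49673748: cttgaacttgccatTGGACTGA
HELZ2, 8mer at chr20:63558276-63558283 (minus strand): cgatgcttccacccTGGACTGA
HEXIM1, 8mer at chr17:45151998-45152005: agggccttcaaagcTGGACTGA
FGF18, 6mer at chr5:171457024-171457029: aagactcacgcaaagGGACTGt

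Normalized totals lay between 10974101 and 12016813 per library, and mitochondrially encoded transcripts took 6.09% to 9.93% of a library. Mimic replicate 3 stood apart from the other mimic libraries. Its score on the first principal component was 20.9, against -59.7 and -41.5 for mimic replicates 1 and 2 and 21.1 to 31.7 for the inhibitor control libraries. Across genes, its median absolute log2 difference was 0.316 to 0.388 from the other mimic libraries and 0.197 to 0.225 from the inhibitor control libraries. Mimic replicate 3 lay closer to the inhibitor control than to its own group, so results are given with all libraries, without it, and with it alone. The cartilage label was borne out only in part: *SOX9*, the master regulator of chondrocytes, was at 1415, 1247 and 1280 in mimic and 994, 1041 and 1159 in inhibitor control libraries. *COL2A1*, the main collagen of cartilage, was at 0 in all 6 of these libraries. Summed endothelial markers lay between 78.8 and 151 in mimic and between 154 and 185 in inhibitor control libraries, blood cell markers between 2539 and 4584 in mimic and between 2837 and 2945 in inhibitor control libraries, and epithelial markers between 3556 and 4659 in mimic and between 4498 and 4829 in inhibitor control libraries. Of the listed markers, 4 of 8 endothelial, 3 of 9 blood and 7 of 13 epithelial ones passed the filter on low values, and the sums include them. Nearly all of the blood and epithelial sums came from the markers that passed, whose single values are not given here. Among those that did not pass, *PECAM1*, *CDH5* and *ERG* (endothelial) reached at most 7.88 in these 6 libraries. *PTPRC*, *CD3E*, *ITGAM*, *HBB* and *HBA1* (blood) reached at most 5.65. *EPCAM* and *CDH1* (epithelial) reached at most 8.99, and *ESRP1* (epithelial) reached 12.4 in inhibitor control replicate 2. The part of other cell types in the results was not tested.

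Of 16468 genes tested, 489 were higher (2.97%) and 228 lower (1.38%) in mimic than in inhibitor control libraries at an adjusted p under 0.05 (4.35% in all). Here and throughout, the adjusted p is that of limma on log2(value + 0.5) with Benjamini-Hochberg adjustment over all tested genes, changes are log2 differences ± SE (mimic minus inhibitor control, n = 3 each), and levels are the normalized values. The split of 68.2% higher among these calls became 54.5% when libraries were rescaled to the median ratio and 51.7% after quantile normalization. The 3 mimic values did not overlap the 3 inhibitor control values for 24.6% of all tested genes (15.0% higher, 9.63% lower) and for 714 of the 717 called. All 3 mimic libraries lay beyond the 9 other libraries of the study for 2.59% of tested genes and for 119 of the 717. With the spread taken from the 6 libraries of the comparison alone, limma called 0 genes, with 3289 at an unadjusted p under 0.05 and a smallest adjusted p of 0.0930.

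The number of calls hung on single libraries. Without mimic replicate 3 there were 2913 genes higher (17.7%) and 2216 lower (13.5%; 31.1% in all), whereas mimic replicate 3 alone gave 20 higher (0.121%) and 11 lower (0.0668%; 0.188% in all). Leaving out mimic replicate 1 or 2 left 23 and 21 calls, and leaving out inhibitor control replicate 1, 2 or 3 left 20, 10 and 188. Leaving out a mimic control library, which bears on the spread only, left 186 to 293 calls, and leaving out an inhibitor library 222 to 432. The median change of the 489 higher genes, which were called with mimic replicate 3 among the libraries, was 0.57 with all libraries, 0.66 without mimic replicate 3 and 0.38 in mimic replicate 3 alone. For the 228 lower genes these medians were -0.64, -0.79 and -0.35.

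**Figure D1:**
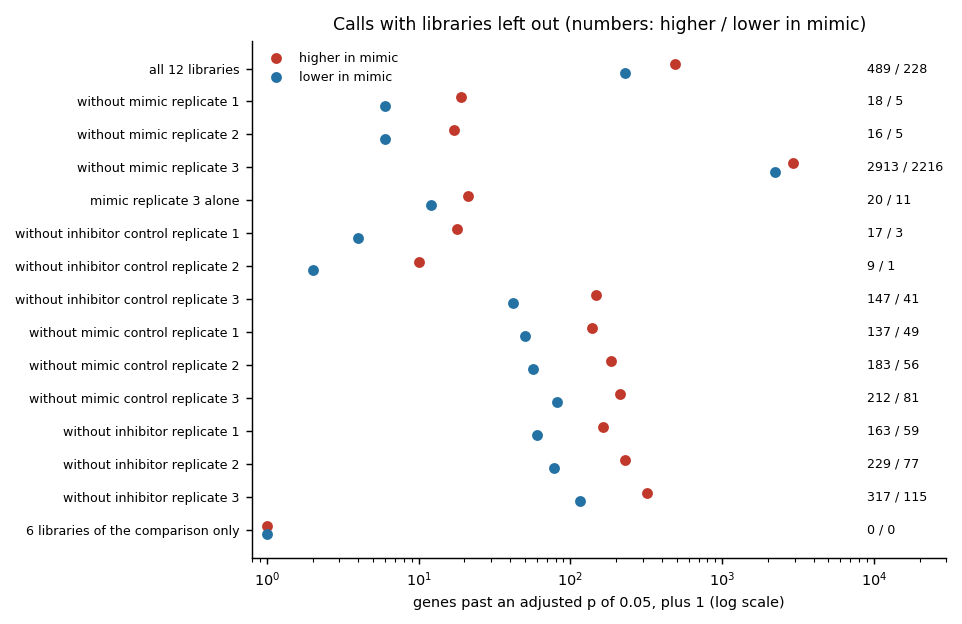
Genes higher (red) and lower (blue) in mimic than in inhibitor control libraries at an adjusted p under 0.05, as a count plus 1 on a log axis, with all 12 libraries and with libraries left out. The count ran from 0 with the 6 libraries alone and 10 without inhibitor control replicate 2 to 5129 without mimic replicate 3.

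Only 10 genes passed in each of the 12 fits with 1 library left out, and 9 of these were higher in mimic cells. They included *HSPA5*, *ERRFI1*, *MTHFD2*, *ODC1*, *NDRG1*, *COL4A1*, *CALR* and *ASNS*, with *CEMIP* lower, and *ERRFI1*, *ODC1* and *COL4A1* were singled out after their values were seen. *HSPA5* (BiP, chr9:125234853-125241330 in GRCh38), the main chaperone of the endoplasmic reticulum, was at 29826, 26727 and 23725 in mimic and 13261, 14360 and 13104 in inhibitor control libraries. The groups were wide apart, with mimic replicate 3 the lowest of its group, and the change of 0.97 ± 0.08 (adjusted p = 0.000705) had the smallest p of all tested genes. The same gene was at 23369 ± 701 in mimic control and 12007 ± 515 in inhibitor libraries (SD, n = 3 each), so that both mimic-type groups lay above both inhibitor-type groups.

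*ERRFI1*, a feedback inhibitor of the EGF receptor, was at 2112, 1810 and 2009 in mimic and 1111, 1073 and 968 in inhibitor control libraries (0.91 ± 0.09, adjusted p = 0.00192). Its mimic control level, 2201 ± 207 (SD, n = 3), overlapped that of the mimic. *NDRG1*, a hypoxia and stress response gene, was at 1893, 1747 and 1385 in mimic and 750.1, 807 and 846 in inhibitor control libraries (1.05 ± 0.12, adjusted p = 0.00241), against 1522 ± 161 in mimic control. *ODC1*, the first enzyme of polyamine synthesis, was at 750, 712 and 620 in mimic and 379, 390.1 and 386 in inhibitor control libraries (0.84 ± 0.09, adjusted p = 0.00235). Its groups did not overlap, and its mimic control mean was 617. *COL4A1*, a basement membrane collagen chain, was at 4484, 4039 and 3645 in mimic and 2516, 2449 and 2468 in inhibitor control libraries (0.71 ± 0.08, adjusted p = 0.00446), with a mimic control mean of 3781. *CEMIP*, which takes part in hyaluronan breakdown, was the 1 gene of the 10 that fell. It was at 1558, 1228 and 1761 in mimic and 2768, 2593 and 3426 in inhibitor control libraries (-0.96 ± 0.14, adjusted p = 0.0130), and at 2084 ± 161 in mimic control and 1030 ± 89.6 in inhibitor libraries (SD, n = 3 each).

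**Figure D2:**
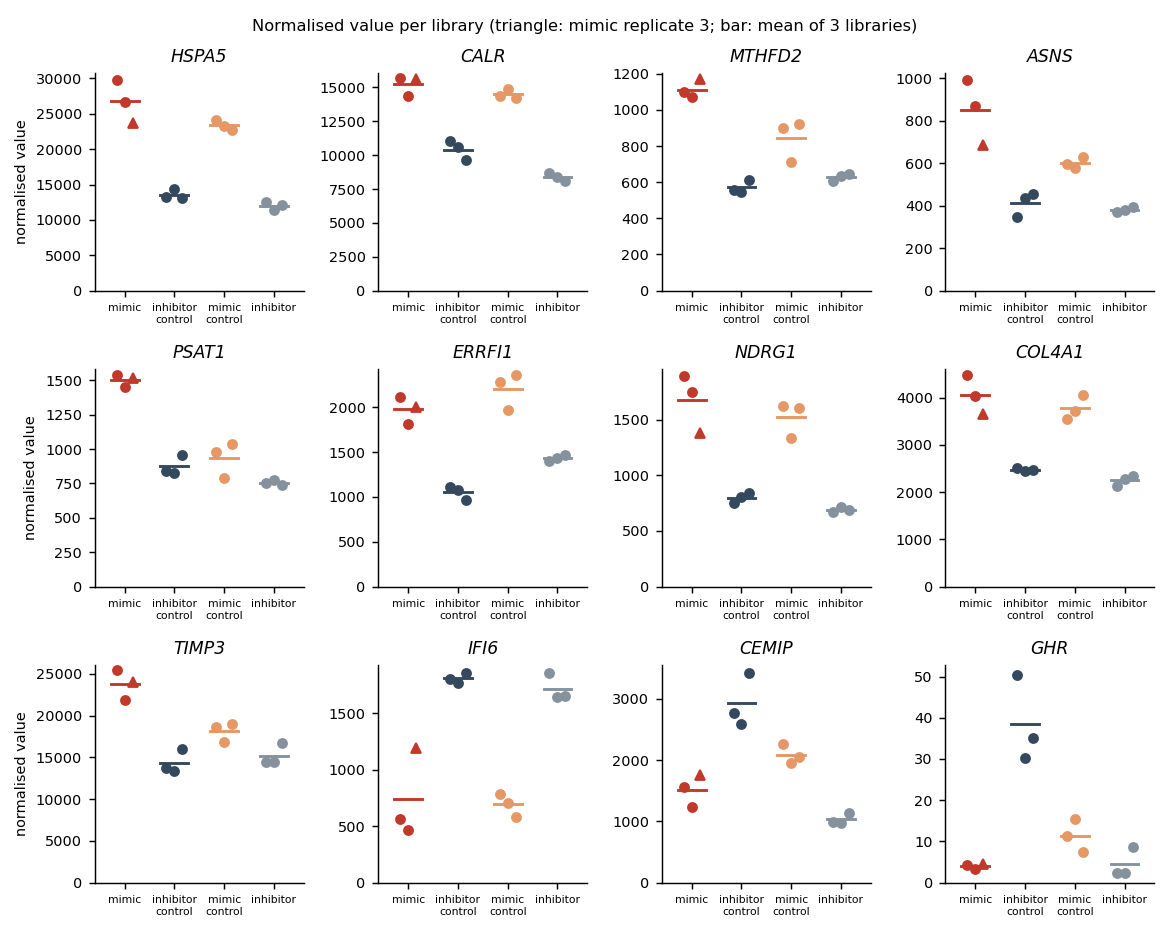
Normalized values of 12 genes in each library (vertical axes from 0), grouped as mimic, inhibitor control, mimic control and inhibitor, with the mean of 3 libraries as a bar and mimic replicate 3 as a triangle. *HSPA5*, *CALR*, *ERRFI1* and *NDRG1* were high in mimic and mimic control alike, *PSAT1* and *MTHFD2* were highest in mimic libraries, and *IFI6* in mimic replicate 3 (1193) lay between mimic replicates 1 and 2 and the inhibitor control.

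The list of genes that ATF4 controls, with amino acid transporters, synthetic enzymes and tRNA synthetases, rose the most often of the 33 lists described: 11 of its 22 tested members were higher and 0 lower, with a median of 0.39 against 0.05 over all tested genes. At an unadjusted limma p under 0.05, 13 members were higher and 1 lower, where 27.9% of all tested genes passed (16.7% higher, 11.3% lower). The unadjusted counts of the other lists are to be set against these shares. ATF4 is the transcription factor that is translated when eIF2α is phosphorylated, as under amino acid shortage or unfolded protein. *MTHFD2* (chr2:74198562-74217565), a mitochondrial folate enzyme, was at 1097, 1070 and 1172 in mimic and 556, 544 and 612 in inhibitor control libraries (0.96 ± 0.10, adjusted p = 0.00226). *ASNS* (chr7:97852118-97872542), asparagine synthetase, was at 991, 868 and 688 in mimic and 349, 437 and 456 in inhibitor control libraries (1.03 ± 0.13, adjusted p = 0.00631). *PSAT1*, an enzyme of serine synthesis, was at 1541, 1448 and 1520 in mimic and 844, 828 and 961 in inhibitor control libraries (0.78 ± 0.10, adjusted p = 0.00631). In all 3 of these genes every mimic library lay above the 9 other libraries, with mimic control means of 844 for *MTHFD2*, 601 for *ASNS* and 936 for *PSAT1*. *SLC7A11*, the cystine transporter, was at 1545, 1528 and 1526 in mimic and 958, 911 and 1059 in inhibitor control libraries (0.65 ± 0.10, adjusted p = 0.0135).

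*ATF4* itself was at 9476, 8430 and 10827 in mimic and 5916, 6269 and 6741 in inhibitor control libraries (0.60 ± 0.10, adjusted p = 0.0214). *DDIT3* (CHOP), a stress-induced transcription factor downstream of it, was at 439, 402 and 622 in mimic and 308, 295 and 310.1 in inhibitor control libraries (0.65 ± 0.16, adjusted p = 0.0434). *SLC7A5*, the large neutral amino acid transporter, was at 480.2, 476 and 616 in mimic and 339, 332 and 329 in inhibitor control libraries (0.64 ± 0.11, adjusted p = 0.0207). In these genes mimic replicate 3, which lay near the inhibitor control across all genes, was the highest library of its group. The median of the list was 0.35, 0.29 and 0.68 in mimic replicates 1, 2 and 3 relative to the inhibitor control mean, and the 3 inhibitor control libraries lay between -0.01 and 0.03. The glycyl-tRNA synthetase gene *GARS1* (0.77 ± 0.13, adjusted p = 0.0207), *AARS1* and *SARS1* were among the members called. Between 2 and 13 members were called with 1 library left out, and without mimic replicate 3 there were 11 higher and 2 lower. The fit without mimic replicate 3 called 17.7% of all tested genes higher and 13.5% lower. Counts without mimic replicate 3 in the other lists are to be set against these 17.7% and 13.5%. Of the 12 fits with 1 library left out, *PSAT1* lost its call in the 1 without inhibitor control replicate 2 (adjusted p = 0.0612), while *SLC7A11* lost it without mimic replicate 1 or 2 and without inhibitor control replicate 1 or 2.

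Of 23 tested chaperones and folding factors of the endoplasmic reticulum, 6 were higher and 0 lower (median 0.28; limma gave 14 higher and 0 lower at an unadjusted p under 0.05). After *HSPA5*, the next was *CALR*, calreticulin, a calcium-binding chaperone of glycoproteins, at 15676, 14380 and 15609 in mimic and 11035, 10577 and 9625 in inhibitor control libraries (0.55 ± 0.07, adjusted p = 0.00621), with a mimic control level of 14484 ± 350 (SD, n = 3). *XBP1*, a transcription factor of the unfolded protein response, was at 2674, 2674 and 2864 in mimic and 2071, 2104 and 2015 in inhibitor control libraries (0.41 ± 0.07, adjusted p = 0.0212). *HSP90B1* (GRP94), a chaperone, was at 6793, 5709 and 4127 in mimic and 3275, 3237 and 3052 in inhibitor control libraries (0.77 ± 0.14, adjusted p = 0.0224). All 3 genes had groups that did not overlap, and *HSP90B1* in mimic replicate 3 was nearest to the inhibitor control. *HYOU1*, a chaperone of the same compartment, was at 527, 453 and 454 in mimic and 354, 359 and 348 in inhibitor control libraries (0.43 ± 0.10, adjusted p = 0.0376), while its mimic control level was lower than either, 195 ± 14.5 (SD, n = 3). *MANF* was the sixth member called. With 1 library left out, 2 to 13 members of the list were called, and without mimic replicate 3 there were 12 higher and 1 lower.

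**Figure D3:**
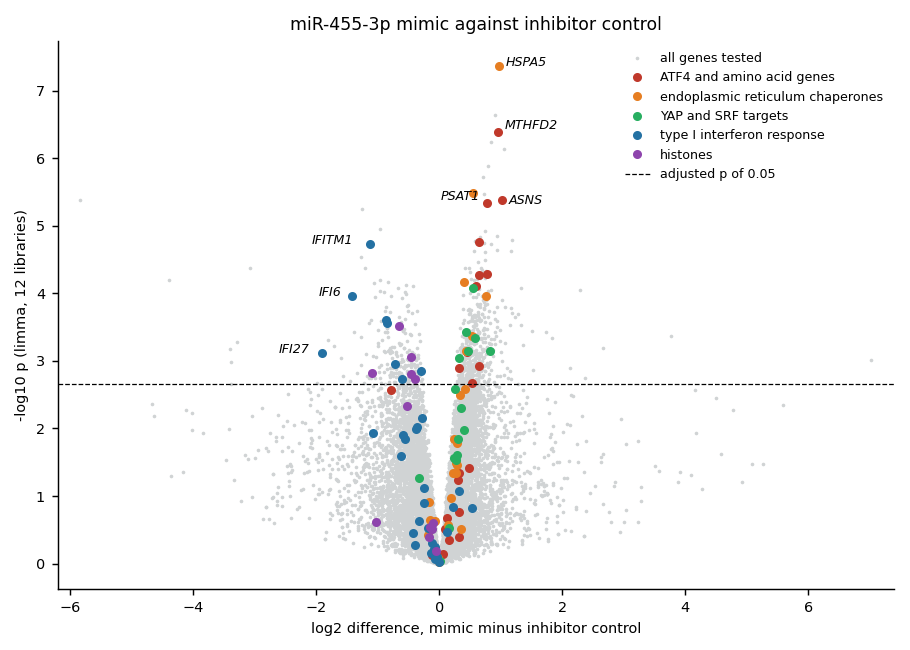
Each of the 16468 tested genes by its log2 difference (mimic minus inhibitor control) and -log10 p from limma, with 5 lists in color and the adjusted p of 0.05 as a dashed line. The called ATF4 and chaperone genes lie on the higher side (11 and 6 genes) and the called interferon and histone genes on the lower side (8 and 5 genes).

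Among 23 tested hypoxia and glycolysis genes, 4 were higher and 0 lower (median 0.22), with 11 higher and 0 lower at an unadjusted limma p under 0.05. Beside *NDRG1* these were *HK2*, hexokinase of the first step of glycolysis, *BNIP3*, a mitophagy receptor, and *PDK1*, which holds pyruvate back from the mitochondrion. *HK2* was at 1588, 1469 and 1915 in mimic and 1100, 1135 and 1185 in inhibitor control libraries (0.53 ± 0.10, adjusted p = 0.0280), with 1534 ± 152 in mimic control (SD, n = 3). *PDK1* was at 141, 170 and 136 in mimic and 88.7, 81.7 and 89.8 in inhibitor control libraries (0.77 ± 0.17, adjusted p = 0.0377). The mimic values lay above the inhibitor control values in both genes. Between 1 and 11 members were called with 1 library left out.

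Genes of the actin cytoskeleton and of YAP and SRF, which respond to cell tension, were higher in 6 of 18 tested members and lower in 0 (median 0.30), with 13 higher and 0 lower at an unadjusted limma p under 0.05. *CRIM1*, a transmembrane BMP-binding protein, was at 1330, 1234 and 1250 in mimic and 906, 760 and 951 in inhibitor control libraries (0.55 ± 0.10, adjusted p = 0.0216). *ACTA2*, smooth muscle actin, was at 7305, 6615 and 7067 in mimic and 4973, 4904 and 5591 in inhibitor control libraries (0.44 ± 0.09, adjusted p = 0.0318), against 4978 ± 452 in mimic control (SD, n = 3). *ANKRD1*, a muscle ankyrin repeat protein and YAP target, was at 6027, 5766 and 4727 in mimic and 2762, 2799 and 3867 in inhibitor control libraries (0.82 ± 0.18, adjusted p = 0.0376). *ACTA2* and *CRIM1* were higher in each mimic library than in the 9 other libraries of the study. *ACTG2*, *CCN2* and *TPM1* were the other members called, and 13 of the 18 had non-overlapping groups with mimic higher, beside 15.0% of all tested genes. With 1 library left out, 0 to 12 members were called (10 higher and 2 lower without mimic replicate 3).

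Of 21 tested TGF-beta and activin genes, 4 were higher and 0 lower (median 0.14), with 10 higher and 1 lower at an unadjusted limma p under 0.05. *TGFB2*, a TGF-beta ligand, was at 10229, 8483 and 4712 in mimic and 3322, 3251 and 4149 in inhibitor control libraries (1.06 ± 0.23, adjusted p = 0.0356), a change of 1.39 without mimic replicate 3 and of 0.41 in that library alone. *TGFBI*, a matrix protein induced by TGF-beta, was at 203, 185 and 176 in mimic and 132, 118 and 105 in inhibitor control libraries (0.67 ± 0.12, adjusted p = 0.0259). *FST*, which binds activin, was at 180, 182 and 176 in mimic and 122, 138 and 121 in inhibitor control libraries (0.50 ± 0.11, adjusted p = 0.0392), with 112 ± 7.67 in mimic control (SD, n = 3). The type I receptor *ACVR1* was the remaining member called (0.52 ± 0.12, adjusted p = 0.0376), and 0 to 10 members were called with 1 library left out (8 higher and 2 lower without mimic replicate 3). *SMAD2*, the receptor-activated transducer of these ligands and a reported miR-455-3p target with a 7mer-m8, had a change of 0.39 ± 0.11 that did not pass (adjusted p = 0.0578).

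Of 17 tested proteases and inhibitors, 2 rose, including *TIMP3*, and *MMP9* fell, beside 2.97% and 1.38% of all tested genes. At an unadjusted limma p under 0.05, 4 members were higher and 4 lower. *TIMP3*, a matrix-bound metalloproteinase inhibitor, was at 25447, 21922 and 24023 in mimic and 13752, 13415 and 15952 in inhibitor control libraries (0.73 ± 0.09, adjusted p = 0.00621). It was higher in every mimic library than in any of the 9 others, and of the 12 fits with 1 library left out it lost its call in the 1 without inhibitor control replicate 2 (adjusted p = 0.0514). *MMP9*, gelatinase B, was at 155, 132 and 190.4 in mimic and 309, 293 and 257 in inhibitor control libraries (-0.86 ± 0.16, adjusted p = 0.0263). The collagenases *MMP1* (-0.56 ± 0.15, adjusted p = 0.0551) and *MMP13* (-0.57 ± 0.19, adjusted p = 0.0863) did not pass, although their mimic and inhibitor control values did not overlap. Groups did not overlap for 5 members with mimic higher and 3 with mimic lower, beside 15.0% and 9.63% of all tested genes. *MMP13* was at 584, 404 and 347 in mimic and 669, 671 and 593 in inhibitor control libraries.

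Genes of the type I interferon response were lower in 8 of 33 tested members and higher in 0, with a median of -0.29. At an unadjusted limma p under 0.05, 15 members were lower and 0 higher, beside 11.3% and 16.7% of all tested genes. *IFI6* (chr1:27666061-27672218), an interferon-induced mitochondrial protein, was at 562, 466 and 1193 in mimic and 1804, 1765 and 1855 in inhibitor control libraries (-1.41 ± 0.25, adjusted p = 0.0224). Its mean was 691 ± 102 in mimic control and 1715 ± 120 in inhibitor libraries (SD, n = 3 each), so mimic replicates 1 and 2 were near the mimic control and mimic replicate 3 lay in between. *IFI27* was at 48.3, 25.2 and 126 in mimic and 189, 179 and 246 in inhibitor control libraries (-1.91 ± 0.43, adjusted p = 0.0377), with 62.2 ± 13.8 in mimic control (SD, n = 3). *IFITM1*, a membrane protein that blocks virus entry, was at 113, 120 and 176 in mimic and 274, 302 and 301 in inhibitor control libraries (-1.13 ± 0.17, adjusted p = 0.0135), with 165 ± 17.4 in mimic control (SD, n = 3). *ISG15*, a ubiquitin-like modifier, was at 305, 276 and 410 in mimic and 543, 527 and 734 in inhibitor control libraries (-0.87 ± 0.17, adjusted p = 0.0286). Mimic replicate 3 was the highest of the 3 mimic libraries in each of these 4 genes. *IFI35* (-0.84 ± 0.17, adjusted p = 0.0290), *OAS1*, *OAS3* and *IFITM3* were the other members called. Across all members, however, the median was -0.15, -0.23 and -0.48 in mimic replicates 1, 2 and 3. Groups did not overlap for 13 members with mimic lower and 1 with mimic higher, beside 9.63% and 15.0% of all tested genes. Between 0 and 11 members were called with 1 library left out, with 10 lower and 1 higher without mimic replicate 3, and *IFI6* lost its call without any 1 of mimic replicates 1 and 2 and the 3 inhibitor control libraries. Of 16 tested genes of nucleic acid sensing, *STING1*, the adaptor of cytosolic DNA sensing, was the 1 called (-0.43 ± 0.11, adjusted p = 0.0494).

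Histone genes were lower in 5 of 12 tested members and higher in 0 (median -0.43; -0.41, -0.53 and -0.31 in mimic replicates 1, 2 and 3), with 6 lower and 0 higher at an unadjusted limma p under 0.05. *H2AC11*, a core histone gene, was at 114, 101 and 112 in mimic and 169, 185 and 159 in inhibitor control libraries (-0.64 ± 0.13, adjusted p = 0.0304), and all 3 mimic values were below the 9 other libraries. *H1-10*, a linker histone expressed throughout the cell cycle, was at 531, 666 and 1454 in mimic and 1816, 1633 and 1652 in inhibitor control libraries (-1.08 ± 0.27, adjusted p = 0.0468). The change of *H1-10* was -1.51 without mimic replicate 3 and -0.22 in that library alone. *H2BC12* and *H2BC4* were also called, and with 1 library left out 0 to 6 members were. Core histone messages mostly lack a poly(A) tail and are near-identical between copies, so the values of single copies are uncertain.

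In the list for G1/S and replication, *UHRF1*, which maintains DNA methylation, and *MCM7*, a helicase subunit, were lower, with 0 of 24 higher (median -0.21; limma gave 9 lower and 2 higher at an unadjusted p under 0.05). *UHRF1* was at 423, 354 and 477 in mimic and 623, 563 and 652 in inhibitor control libraries (-0.56 ± 0.11, adjusted p = 0.0286), with a mean of 276 in mimic control. *MCM7* was at 781, 803 and 870 in mimic and 1050, 1025 and 1039 in inhibitor control libraries (-0.35 ± 0.09, adjusted p = 0.0469). For mitosis the values ran the other way without any call: the median over 25 genes was 0.33, and 0.54, 0.32 and 0.17 in mimic replicates 1, 2 and 3, with -0.19 to 0.19 in the inhibitor control libraries. Limma called 0 of these genes, with 13 higher and 0 lower at an unadjusted p under 0.05 (16.7% and 11.3% of all tested genes). *TOP2A*, topoisomerase II, was at 186, 191 and 150.4 in mimic and 121, 101 and 132 in inhibitor control libraries (0.57 ± 0.16, adjusted p = 0.0575). Without mimic replicate 3, 11 of the 25 mitotic genes were called higher and 0 lower, beside 17.7% and 13.5% of all tested genes in that fit.

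**Figure D4:**
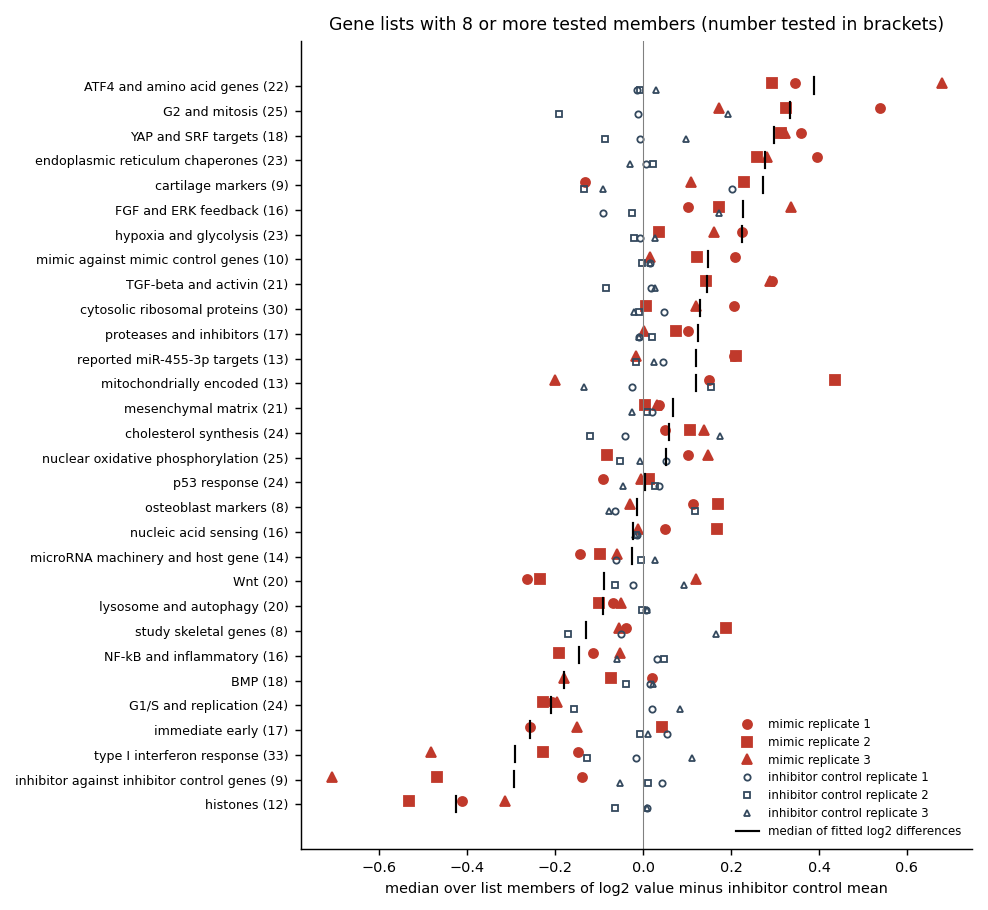
Median over the tested members of each gene list of the log2 value minus the inhibitor control mean, for mimic replicates 1 to 3 (filled) and inhibitor control replicates 1 to 3 (open), with the median of the fitted differences as a black bar. The ATF4, YAP and SRF, and chaperone lists lie right of the inhibitor control libraries in all 3 mimic libraries (ATF4: 0.35, 0.29 and 0.68) and the histone list left of them (-0.41, -0.53 and -0.31).

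Single genes were called in several other lists, each of 16 to 20 tested members, where 4.35% of all tested genes were called. *MYC*, the growth-promoting transcription factor, was at 1640, 1667 and 2014 in mimic and 985, 1004 and 1171 in inhibitor control libraries (0.75 ± 0.14, adjusted p = 0.0261). *JUN*, an AP-1 subunit, was at 2378, 2474 and 3169 in mimic and 3826, 3715 and 3514 in inhibitor control libraries (-0.47 ± 0.10, adjusted p = 0.0321). These immediate early genes thus moved in opposite directions. Of the 17 tested members of their list, 2 were higher and 6 lower at an unadjusted limma p under 0.05. *ID3*, a direct target of BMP signaling, fell (-0.58 ± 0.12, adjusted p = 0.0317), as did the ligand *WNT7B* (-1.02 ± 0.24, adjusted p = 0.0394), the NF-kB target *TNFAIP2* (-0.36 ± 0.07, adjusted p = 0.0271) and the lysosomal protease *CTSD* (-0.33 ± 0.08, adjusted p = 0.0471). *FGFRL1*, a decoy FGF receptor, rose (0.36 ± 0.08, adjusted p = 0.0376). Unadjusted limma counts in these lists, higher and lower, were 1 and 4 of 18 for BMP and 0 and 4 of 20 for Wnt. They were 1 and 3 of 16 for NF-kB, 2 and 4 of 20 for lysosome and autophagy, and 5 and 0 of 16 for FGF. Limma called 0 members of the lists for cholesterol synthesis (5 higher and 1 lower at an unadjusted p under 0.05), the p53 response (4 and 5), nuclear oxidative phosphorylation (7 and 3), cytosolic ribosomal proteins (9 and 1), mesenchymal matrix (3 and 4) and microRNA machinery (3 and 2), where 27.9% of all tested genes passed unadjusted. It also called 0 of 13 mitochondrially encoded genes and 0 of 8 osteoblast markers, each with 1 member higher at an unadjusted p under 0.05. *SOX9* (0.30 ± 0.08, adjusted p = 0.0566) and *COL11A1*, a cartilage collagen chain (0.58 ± 0.15, adjusted p = 0.0519), were the nearest to the threshold among the 9 tested cartilage markers, of which limma called 0, with these 2 at an unadjusted p under 0.05.

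The largest rises by size among called genes with non-overlapping groups and a mean of at least 20 included several genes whose reads are shared with near copies. *NOMO1* was at 467, 466 and 9.12 in mimic and at or below 1.41 in inhibitor control libraries, while the sum over *NOMO1*, *NOMO2* and *NOMO3* was 3718, 3262 and 3275 in mimic and 3127, 2915 and 2841 in inhibitor control libraries. The fitted change of *NOMO1*, 7.02 ± 1.64, depends on the pseudocount and on how reads were divided between the copies. *ASNSP1*, a pseudogene of *ASNS*, was at 58.8, 70.0 and 113 in mimic and 13.3, 32.3 and 22.3 in inhibitor control libraries (1.84 ± 0.39, adjusted p = 0.0334), beside the rise of *ASNS* itself. *GPSM3*, a regulator of G-protein signaling, was at 58.5, 86.2 and 97.9 in mimic and 18.4, 6.24 and 14.9 in inhibitor control libraries (2.67 ± 0.59, adjusted p = 0.0375), with 18.6 ± 12.6 in mimic control and 163 ± 45.1 in inhibitor libraries (SD, n = 3 each). Its order over the 4 groups thus differed from that of *HSPA5*, with the mimic control near the inhibitor control.

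*HS3ST2*, a heparan sulfate sulfotransferase, was at 283, 247 and 410.0 in mimic and 92.8, 106 and 170 in inhibitor control libraries (1.36 ± 0.30, adjusted p = 0.0360). *F3*, tissue factor, which starts the extrinsic clotting pathway, was at 1769, 1523 and 1705 in mimic and 631, 658 and 951 in inhibitor control libraries (1.18 ± 0.17, adjusted p = 0.0135). *TNFSF15*, a TNF family cytokine, was at 45.7, 40.2 and 51.7 in mimic and 17.7, 16.2 and 24.3 in inhibitor control libraries (1.23 ± 0.24, adjusted p = 0.0280). *F3* was the 1 of these 3 genes with every mimic library above the 9 others. *C12orf50*, *EML5*, *LSM12P1* and *ENTHD1* completed the 10 largest rises, each with a change of at least 1.27.

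At the other end, *PSMC1P1*, a pseudogene of a proteasome subunit, was listed at 0 in all 3 mimic and all 3 mimic control libraries and at 41.3, 42.5 and 12.5 in inhibitor control libraries. *GHR*, the growth hormone receptor, was at 4.37, 3.39 and 4.47 in mimic and 50.4, 30.1 and 35.1 in inhibitor control libraries, which was 9.46 times higher in the inhibitor control (-3.07 ± 0.50, adjusted p = 0.0201). Its mean was 11.4 ± 4.06 in mimic control and 4.42 ± 3.66 in inhibitor libraries (SD, n = 3 each), so the inhibitor control stood out as the high group. *DCLK1*, a microtubule-associated kinase, was at 5.96, 2.21 and 1.78 in mimic and 47.6, 48.8 and 19.4 in inhibitor control libraries (-3.40 ± 0.76, adjusted p = 0.0376), against 12.6 in mimic control and 8.79 in inhibitor libraries. The inhibitor control was again the highest of the 4 groups. *SLC34A3*, a kidney phosphate transporter (-1.81 ± 0.39, adjusted p = 0.0339), *CAMK1*, *MRM1*, *KCNK12* and *CERCAM*, with *IFI27* and *IFI6*, completed the 10 largest falls. The *GAGE12G* value, the largest fall without mimic replicate 3, was 0, 0 and 5238 in mimic and 3857 to 5437 in inhibitor control libraries, while the sum over 13 GAGE genes was 43009 to 57281 in mimic and 52359 to 55457 in inhibitor control libraries.

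Of the study's 13 skeletal genes, 8 passed the filter on low values and *IFITM1* was the 1 called. *FGF18*, a growth factor of cartilage and bone, was low, at 1.03, 8.78 and 7.35 in mimic and 5.45, 5.82 and 8.29 in inhibitor control libraries. The groups overlapped fully, and the difference of -0.798 in mean value had a two-sided exact permutation p of 0.9, where 0.1 is the smallest that 3 against 3 allow. The mean of *FGF18* was 10.1 ± 3.58 in mimic control and 40.4 ± 10.7 in inhibitor libraries (SD, n = 3 each), so the inhibitor libraries were the high group. In chicken fibroblasts, the study reported that the mimic repressed a reporter with the *FGF18* 3′ UTR, and that mutating the seed site reversed this. In osteosarcoma cells it reported less *FGF18* with the mimic and more with the inhibitor. Of 13 tested genes reported as miR-455-3p targets, *NDN*, a MAGE family protein with a 7mer-m8, was lower at 819, 821 and 1174 in mimic and 1445, 1364 and 1321 in inhibitor control libraries (-0.57 ± 0.14, adjusted p = 0.0441). The list median was 0.12, above that of all genes, and *RUNX2* (-0.07) and *HDAC2* (0.38) did not pass.

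Seed matches to miR-455-3p were counted in the 3′ UTRs of 13935 tested genes. The median change was 0.04 for 551 genes with an 8mer, 0.05 for 1301 with a 7mer-m8, 0.05 for 901 with a 7mer-A1 (GGACTG followed by A), 0.02 for 1969 with a 6mer and 0.08 for 9213 with none. Genes called lower made up 3.09% of those with an 8mer, 1.84% with a 7mer-m8, 1.44% with a 7mer-A1, 1.63% with a 6mer and 1.15% with none, and genes called higher 3.63%, 3.00%, 3.66%, 3.25% and 3.38%. Over 3′ UTRs of every length, the share called lower was thus highest for the 8mer, although more 8mer genes were higher (20) than lower (17). The 3′ UTRs differed in length, with a median of 3057 bases for the 8mer class and 948 for genes with no match. When only 3′ UTRs of 2000 bases or more were kept, a setting chosen after seeing the data, the median change was 0.09 for 1192 genes with an 8mer or 7mer-m8 and 0.19 for 2237 with none, and 1.34% and 0.358% were called lower. In these longer 3′ UTRs the classes still differed in G and C content, with medians of 41.3% and 38.1%, whose part in the result was not tested. Taken apart, the share called lower in the longer 3′ UTRs was 1.10% for the 8mer and 1.45% for the 7mer-m8. The 8mer thus no longer had the highest share. For the miR-455-5p seed, which served as a comparison, the median was 0.12 for 1520 genes with an 8mer or 7mer-m8 and 0.03 for 9609 with none. With 3′ UTRs of 2000 bases or more, the miR-455-5p medians were nearer to each other, 0.149 for 1085 genes and 0.126 for 2079. In mimic replicate 3 alone the miR-455-3p medians were 0.04 with an 8mer or 7mer-m8 and 0.04 with none. Without mimic replicate 3 they were 0.0526 and 0.1022.

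**Figure D5:**
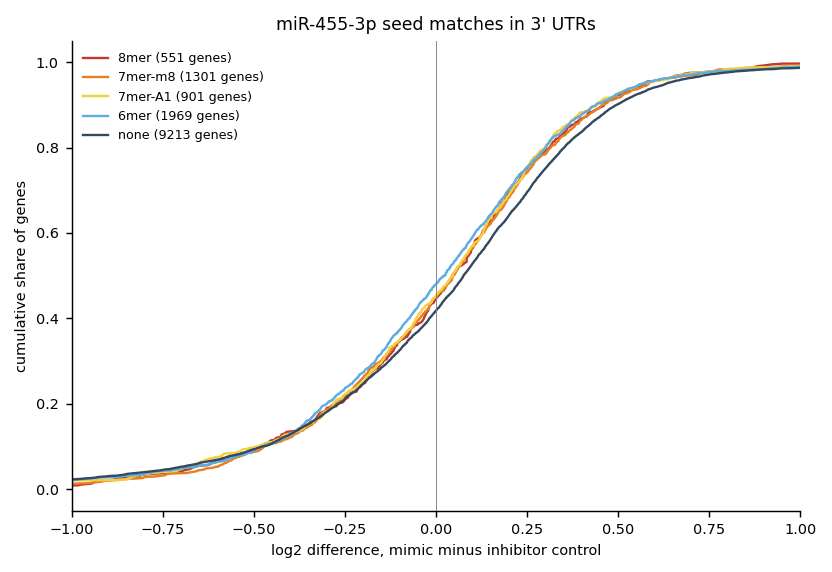
Cumulative share of genes by log2 difference (mimic minus inhibitor control) for the classes of miR-455-3p seed match in the 3′ UTR. The curves of the 4 classes with a match run close together and, at the median, left of the curve for genes with no match, with medians of 0.02 to 0.05 against 0.08.

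The genes with a full match that fell with the smallest p were those whose sites are printed above, with *QSOX1*, *LENG8* and *NHERF2*. *IL18BP*, which neutralizes the cytokine IL-18 and is itself induced by interferon, was at 39.6, 46.9 and 46.0 in mimic and 104, 115 and 98.4 in inhibitor control libraries (-1.25 ± 0.17, adjusted p = 0.00713). *BCL2L12*, a BCL2 family member, was at 89.2, 134 and 169 in mimic and 317, 300.2 and 264 in inhibitor control libraries (-1.21 ± 0.20, adjusted p = 0.0201). *HEXIM1*, which holds the elongation factor P-TEFb inactive, was at 833, 811 and 822 in mimic and 1185, 1092 and 1034 in inhibitor control libraries (-0.42 ± 0.07, adjusted p = 0.0214). In all 3 of these genes each mimic library lay below the 9 other libraries, with mimic control means of 69.2, 225 and 885. *HELZ2*, a helicase and nuclear receptor coactivator, was at 298, 404 and 379 in mimic and 523, 656 and 763 in inhibitor control libraries (-0.84 ± 0.14, adjusted p = 0.0212), and its mimic control mean of 390.1 lay within the range of the mimic. Of the 12 fits with 1 library left out, *IL18BP* lost its call in the 1 without inhibitor control replicate 2 (adjusted p = 0.0696), and *GHR* lost it without mimic replicate 1 or 2 and without inhibitor control replicate 1 or 2. A match did not go with a fall in every case: *CALR*, *SLC7A11* and *SLC7A5*, which rose, carried an 8mer.

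The genes that led the study's other comparisons, chosen with their values known, differed here in their own way. *B4GALT1*, a galactosyltransferase, was at 8090, 7681 and 6997 in mimic and 7080, 7086 and 7117 in inhibitor control libraries (0.09 ± 0.07, adjusted p = 0.389), while its mimic control level was 2088 ± 89.3 (SD, n = 3). *PDIA6*, a protein disulfide isomerase, was at 12539, 10388 and 10428 in mimic and 9628, 9374 and 9210 in inhibitor control libraries (0.24 ± 0.08, adjusted p = 0.0981), against 4366 ± 115 in mimic control (SD, n = 3). The mimic control was thus the low group of the 4 for both genes. Of the 10 genes that led the mimic against mimic control comparison, 1 was called higher here (*HYOU1*), and of the 9 that led the inhibitor against inhibitor control comparison, 2 were called lower (*CEMIP* and *GHR*). Over all tested genes these shares were 2.97% and 1.38%. Those comparisons used the same mimic or the same inhibitor control libraries as this one, so the counts are not independent of how the genes were chosen.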

How the data were processed

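RNA was sequenced from 12 SW1353 libraries. The submitters' processing notes name FastQC, Trim Galore, kallisto, sleuth and the build hg38, and the sources used here give no versions or annotation. Each deposited value is a normalized signal for 1 Ensembl gene, an estimated count over a size factor without correction for gene length, in which reads of near-identical genes are shared out by estimate.

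Of 40490 listed genes, 16468 that reached 5 in no fewer than 47% of libraries were tested on log2(value + 0.5) with limma 3.58.1 (R 4.3.3): 4 group means, intensity trend, two-sided, Benjamini-Hochberg threshold 0.05. The fit was checked on simulated data with independent noise and no library set apart like mimic replicate 3. That check does not bear on how far the calls depend on single libraries. *FGF18* was also tested by exact permutation. 3′ UTRs of at least 50 bases came from GENCODE 29 (GRCh38). The 33 gene lists and the members were chosen with earlier results of these data known.

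Genes named were the study's skeletal genes and reported targets, the 10 largest rises and falls (past the threshold, groups not overlapping, a mean of at least 20 in 1 group) with and without mimic replicate 3, up to 4 members of each list by p, the 8 lowered genes with a full seed match by p, and the leading genes of the other comparisons. A subset is printed, and the values of some genes are not given here. Alternatives covered pseudocount, filter, scaling, weights, trend, replicate block and each library left out. Python 3.11.15 and matplotlib 3.10.9 were used for tables and plots.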

Additional observations from a re-analysis of the deposited data

How the results depend on the processing

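The count of 717 calls did not hold: it was 5032 with array weights, 95 with no filter on low values, 30 with no intensity trend, 31 with mimic replicate 3 alone and 0 with the 6 libraries alone (limma, with 3289 genes at an unadjusted p under 0.05). With 1 library left out it ran from 10 to 5129. Pseudocounts of 0.1, 1 and 5, rescaling, quantile normalization and a filter of at least 20 gave 534 to 947. Deviations from the group mean correlated at 0.035, -0.023 and -0.042 between mimic and inhibitor control libraries of the same replicate number. Because mimic replicate 3 stood apart from its group, these values cannot exclude a pairing by replicate number. A replicate block gave 152 calls. With 1 library left out, the difference in mean value of *FGF18* ran from -2.33 to 1.55 and its log2 change from -0.995 to 0.30. The difference in mean turned to 1.55 without mimic replicate 1 and to 0.0867 without inhibitor control replicate 3, and the log2 change of *FGF18* to 0.30 without mimic replicate 1 and to 0.18 with mimic replicate 3 alone, where *B4GALT1* was at -0.020. The seed difference in medians (an 8mer or 7mer-m8 minus none), -0.028, moved to -0.0956 among 3′ UTRs of at least 2000 bases. For the miR-455-5p seed it was 0.0896 over 3′ UTRs of every length. Among those of at least 2000 bases the miR-455-5p medians were 0.149 with an 8mer or 7mer-m8 and 0.126 with none. The causes were not tested. Genes with values near the filter, such as *FGF18* and *GHR*, are limited by depth, and total counts per library were not analysed here.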
